A study of Mus musculus with 12 samples.

Results

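A module of 47 genes of the tissues that surround, supply and patrol the embryonic brain was followed across 12 arrays of mouse cortex. The module comprises 14 endothelial, 6 pericyte, 2 basement membrane, 10 meningeal, 10 microglial and 5 red blood cell genes. The genes were chosen by name as markers of non-neural tissue, and each was read through every probe set that the platform annotation assigns to that gene alone, 83 of the 34958 probe sets that name 1 gene. Of the 47 genes, 36 were bright enough to be tested, out of 11785 tested genes among 18194 named ones. A gene was tested when a probe set exceeded 5.21, the median of all log2 values, on at least 3 of 12 arrays, and was then read on its tested probe set of highest mean. The remaining 11 genes were Tie1, Esm1, Anpep, Col1a1, Lum, Foxd1, Twist1, Ogn, Aif1, Ptprc and Mrc1.

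The tissue was cortex at embryonic day 14, divided into a caudal and a rostral part, from AP2gamma knockout (KO) and wild-type (WT) mice. AP2gamma, encoded by Tfap2c, is a transcription factor, and the series asks about its part in the number of basal progenitors of the cortex. The 4 groups held 3 arrays each: caudal KO from animals 1, 2 and 13, caudal WT from animals 4, 6 and 14, rostral KO from animals 7, 8 and 15, and rostral WT from animals 10, 12 and 16. The labels do not say which Tfap2c allele was deleted, whether it was deleted in the whole embryo or in the cortex alone, what the sex or strain of the embryos was, or whether meninges were removed before RNA was taken. Replicates are biological per the series text, and p-values set a difference of group means against the spread between arrays within groups.

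Blood vessels enter the cortex from a plexus in the meninges, the fibroblast-rich sheet that covers the brain. Endothelial cells line each vessel, pericytes wrap it, and both share a basement membrane built largely of type IV collagen. Microglia are the macrophages of the brain and arrive from the yolk sac, while the red blood cells of this stage derive in part from the same source and carry embryonic globins. None of these cells arises from cortical progenitors, so their transcripts can report how much non-neural tissue a piece held as well as how active its cells were. Slc7a5 and Cspg4 are exceptions, since neural cells make them as well. In bulk RNA, fewer cells of a type and less RNA per cell cannot be told apart.

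The arrays were alike in overall signal, with medians of 5.21 to 5.22 and mean rank correlations with arrays of the same group of 0.926 to 0.952 over all 45101 probe sets. All 7 cortical identity genes with a probe set of their own (Emx1, Emx2, Pax6, Lhx2, Neurod6, Tbr1 and Sox2) were tested, and their mean log2 level was 9.90 to 10.55 on the 12 arrays. Tfap2c itself had 42.9% of the WT signal in caudal KO cortex and 66.4% of the WT signal in rostral KO cortex, and the place of its probes relative to the deletion is not known here. Xist, transcribed from the inactive X chromosome, was high on caudal WT 6 (11.32) and on rostral WT 12 (11.89) and at or below 5.48 on the other 10 arrays. Both high arrays were WT and no KO array was high, so Xist was not balanced between genotypes. Fits without these WT animals are among the alternatives below. The choroid plexus genes Folr1 and Clic6 were high on caudal WT 6 (7.71 and 7.33), the array that was also high in several lists below.

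Across the 36 tested members, 1 array stood apart. Rostral KO animal 15 held the highest of the 12 values for 17 of 36 members (47.2%), against 9.09% of all tested genes. These were 5 of 5 meningeal, 2 of 2 basement membrane, 6 of 12 endothelial, 2 of 5 pericyte, 2 of 7 microglial and 0 of 5 red blood cell genes. Rostral KO 8 and caudal WT 6 held the highest value of 5 members each (13.9%), against 9.09% and 10.9% of all genes. Means of the rostral KO group are therefore also given without this animal where that moves them.

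**Figure D1:**
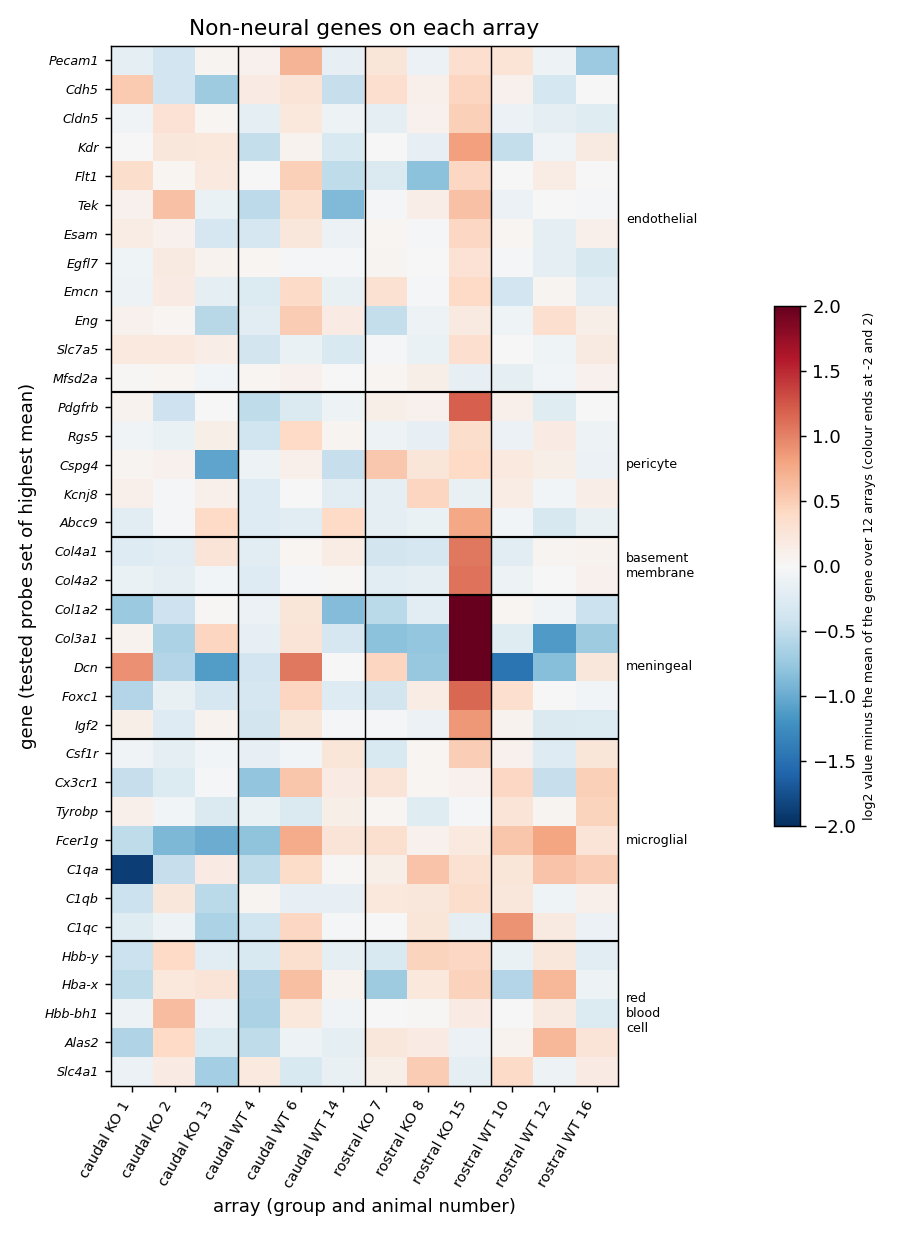
Log2 value of each of the 36 tested genes (rows, grouped by cell type) on each of the 12 arrays (columns), minus the mean of that gene over all arrays; red is above and blue below the gene's mean, and colours end at -2 and 2. The column of rostral KO 15 is red through the basement membrane and meningeal genes, and the caudal KO columns are blue for most microglial genes.

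The meningeal genes gave the widest spread among arrays. Of the 10 listed, 5 were tested, and all 5 were highest on rostral KO 15. Col3a1 and Col1a2 encode chains of the fibrillar collagens made by fibroblasts. Col3a1 read 5.98, 5.28 and 6.35 in caudal KO, against 5.75, 6.17 and 5.57 in caudal WT. In rostral cortex it read 5.10, 5.14 and 9.97 in KO animals 7, 8 and 15, against 5.67, 4.77 and 5.19 in WT. The value of rostral KO 15 was 12.3-fold above the next highest array, whereas the other rostral KO arrays lay within the WT range. Col1a2 read 5.09, 5.42 and 5.86 in caudal KO, against 5.71, 6.07 and 4.97 in caudal WT. The rostral arrays read 5.29, 5.61 and 8.93 in KO, against 5.87, 5.77 and 5.40 in WT. Here too only rostral KO 15 left the range of the other arrays, by 7.25-fold over the next highest.

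Dcn encodes decorin, a small proteoglycan that binds collagen fibrils. It read 5.90, 4.40 and 3.87 in caudal KO, against 4.60, 6.05 and 4.99 in caudal WT. In rostral cortex it read 5.42, 4.24 and 7.51 in KO, against 3.53, 4.15 and 5.22 in WT. KO and WT overlapped in both regions, and many of these values were dim, that is at or below 5.21. Foxc1, a forkhead factor that meningeal fibroblasts need, read 4.80, 5.32 and 6.32 on the rostral KO arrays, against 5.51, 5.16 and 5.12 on the rostral WT arrays. In caudal KO Foxc1 was dim on all 3 arrays (4.59, 5.02 and 4.84), against 4.84, 5.60 and 4.91 in caudal WT. Igf2, the fetal growth factor that meninges and vessels secrete, exceeded 5.21 on all arrays. It read 8.38, 8.29 and 9.27 on the rostral KO arrays, against 8.47, 8.12 and 8.13 on the rostral WT arrays, and stayed between 8.04 and 8.65 on the 6 caudal arrays.

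The other 5 meningeal genes were not tested. Lum, which encodes the collagen-binding proteoglycan lumican, was dim on 11 arrays and read 7.80 on rostral KO 15. Both probe sets of Col1a1, the partner chain of Col1a2 in type I collagen, also had their highest values there (5.35 and 5.54). Ogn, which encodes osteoglycin, another small proteoglycan, was highest on caudal WT 6 (6.38) and next highest on rostral KO 15 (5.40) on 1 of its probe sets. The transcription factor genes Foxd1 and Twist1 ran from 0.81 to 4.51 and from 0.66 to 3.54 and were not highest on rostral KO 15.

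**Figure D2:**
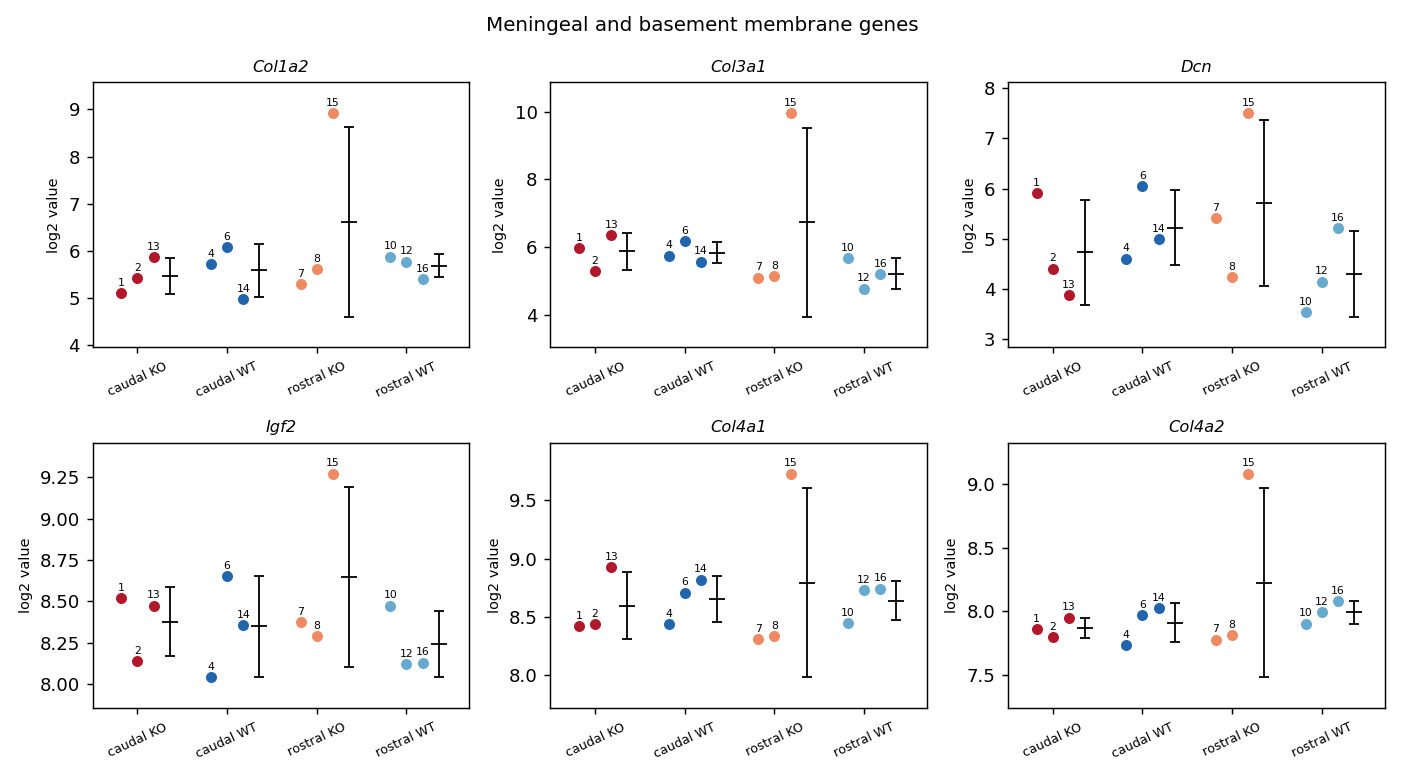
Log2 values of 6 genes of meninges and basement membrane on each array, in the 4 groups; numbers beside points are animal numbers, and the black mark and bar beside each group give the mean ± SD (n = 3). In all 6 panels rostral KO 15 is the highest point, and the wide bars of rostral KO stem from it.

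The 2 basement membrane genes, Col4a1 and Col4a2, encode the chains that assemble into the type IV collagen of vessels and of the surface of the brain. Col4a2 read 7.86, 7.80 and 7.95 in caudal KO, against 7.74, 7.97 and 8.03 in caudal WT. The rostral KO arrays had 7.78, 7.81 and 9.08, against 7.90, 7.99 and 8.08 in WT. Col4a1 read 8.42, 8.44 and 8.93 in caudal KO, against 8.44, 8.71 and 8.82 in caudal WT. The rostral KO arrays had 8.31, 8.33 and 9.73, against 8.44, 8.73 and 8.74 in WT. Both were highest on rostral KO 15, by 2.00-fold for Col4a2 and 1.74-fold for Col4a1 over the next highest array, and rostral KO 7 and 8 lay below all 3 rostral WT arrays for both. A second Col4a1 probe set differed by -0.50 between rostral KO and WT, against 0.15 for the brighter one.

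The 2 type IV collagen genes lie head to head, and their promoter windows are shown because both genes were highest on the same array. In RefSeq (GRCm38.p6) their start sites are 21 bases apart. The Col4a2 window, chr8:11312555-11312854 on the plus strand, covers 250 bases before to 50 after its start. Its capitals mark the 78 bases (11312777 to 11312854) that it shares with the Col4a1 window on the minus strand (11312777 to 11313076). The Col1a2 window, chr6:4505368-4505667 on the plus strand, is shown for the fibrillar collagen genes, with capitals at 3 motifs on either strand. These are TGATAA, a form of the motif of GATA factors, CACCC, the motif of Kruppel-like factors, and the box named CCAAT. The window holds the CCAAT box at 2 places and CACCC at 2 places. Of 32851 such windows, 37.4% hold the CCAAT box, 57.5% hold CACCC and 9.05% hold TGATAA. The motifs do not overlap one another in these letters, and a match describes the sequence alone.
Col4a2: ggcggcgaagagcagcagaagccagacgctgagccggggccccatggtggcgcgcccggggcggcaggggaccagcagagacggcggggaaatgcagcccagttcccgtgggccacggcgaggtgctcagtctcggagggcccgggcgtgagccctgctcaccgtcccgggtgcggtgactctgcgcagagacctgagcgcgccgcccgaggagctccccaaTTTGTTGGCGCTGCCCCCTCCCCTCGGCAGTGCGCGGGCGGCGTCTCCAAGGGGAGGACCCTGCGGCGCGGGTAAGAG
Col1a2: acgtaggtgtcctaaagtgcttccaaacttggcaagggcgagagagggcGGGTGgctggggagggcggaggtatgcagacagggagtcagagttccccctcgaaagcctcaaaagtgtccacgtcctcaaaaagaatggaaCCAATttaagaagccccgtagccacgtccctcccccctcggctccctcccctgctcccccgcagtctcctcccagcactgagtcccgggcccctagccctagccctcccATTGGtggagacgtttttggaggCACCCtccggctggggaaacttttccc

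Of 14 endothelial genes listed, 12 were tested, and 6 of these were highest on rostral KO 15. None passed the threshold of 0.05 (limma adjusted p) in any comparison. Cldn5, which encodes the tight junction protein of the blood-brain barrier, read 8.01, 8.36 and 8.12 in caudal KO, against 7.89, 8.28 and 7.98 in caudal WT. The rostral arrays read 7.88, 8.17 and 8.56 in KO, against 7.96, 7.88 and 7.84 in WT. The groups overlapped in both regions, with the highest value again on rostral KO 15. Kdr, the main VEGF receptor of endothelium, read 6.75, 6.99 and 6.97 in caudal KO, against 6.29, 6.83 and 6.46 in caudal WT. In rostral cortex it read 6.76, 6.61 and 7.58 in KO, against 6.29, 6.70 and 6.95 in WT. KO and WT overlapped in both regions for Kdr too.

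Slc7a5 had the smallest p among the 36 members, read on their brightest tested probe sets, in both the caudal and the averaged KO comparison. It encodes the large amino acid transporter that endothelium of the brain carries, and neural progenitors use it as well, so its signal is not endothelial alone. Slc7a5 read 8.51, 8.50 and 8.44 in caudal KO, against 7.94, 8.17 and 8.00 in caudal WT. The rostral arrays read 8.27, 8.18 and 8.65 in KO, against 8.32, 8.21 and 8.49 in WT. Each caudal KO array thus lay above each caudal WT array, while the rostral groups overlapped. The caudal difference was 0.45 ± 0.13 on the log2 scale (SE, 95% interval 0.17 to 0.73) with a limma adjusted p of 0.92. Mfsd2a, the lipid transporter that keeps the barrier tight, stayed within 7.85 to 8.16 on all 12 arrays.

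Egfl7, which encodes a matrix protein secreted by growing vessels, had the smallest p among the members in rostral cortex. It read 7.21, 7.16 and 7.44 on the rostral KO arrays, against 7.13, 6.97 and 6.83 on the rostral WT arrays, and 7.06, 7.33 and 7.22 in caudal KO, against 7.20, 7.12 and 7.12 in caudal WT. The rostral groups did not overlap, and the difference was 0.29 ± 0.14 (SE, limma adjusted p = 0.74). A dimmer Egfl7 probe set read 6.92, 7.25 and 7.12 on the rostral KO arrays, against 6.38, 6.13 and 6.25 on the rostral WT arrays. Its rostral difference of 0.84 ± 0.18 did not pass in a fit of all tested probe sets (limma adjusted p = 0.67). The other 3 probe sets of the gene, the brightest one included, gave 0.14, 0.25 and 0.29. The brightest one, at 0.29, and the one at 0.14 carry the suffix of probes that can also match other transcripts. Egfl7 is the host gene of miR-126, and these probe sets do not measure that microRNA.

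Cdh5, which encodes the cadherin of endothelial junctions, read 6.09, 5.84 and 6.18 on the rostral KO arrays, against 5.83, 5.40 and 5.75 on the rostral WT arrays. The rostral groups did not overlap, though their nearest arrays read 5.84 and 5.83, and differed by 0.37 ± 0.31 (SE, limma adjusted p = 0.86). In caudal cortex Cdh5 read 6.26, 5.37 and 5.03 in KO, against 5.90, 5.99 and 5.28 in WT, a wide overlap. Pecam1, an adhesion molecule of endothelium and blood cells, read 5.30, 5.10 and 5.53 in caudal KO, against 5.56, 6.16 and 5.31 in caudal WT. In rostral cortex Pecam1 read 5.73, 5.35 and 5.82 in KO, against 5.76, 5.38 and 4.75 in WT, again with overlap. The remaining tested genes encode the VEGF receptor Flt1, the angiopoietin receptor Tek, the adhesion protein Esam, the sialomucin Emcn and the TGF-beta co-receptor Eng. For all of these KO and WT overlapped in both regions on the brightest tested probe set. A second Flt1 probe set differed by 1.52 ± 0.66 (SE) between caudal KO and WT, against 0.20 for the brighter one. It did not pass in a fit of all tested probe sets. Emcn had the largest rostral difference of the list (0.41) and Flt1 the most negative one (-0.28, or -0.60 without rostral KO 15 and 0.01 without rostral KO 8). The receptor gene Tie1 (2.01 to 4.81) and the tip cell gene Esm1 (-0.30 to 3.29) were dim on every array.

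Of the 6 pericyte genes 5 were tested, and none passed the threshold in any comparison. Pdgfrb, the receptor through which endothelium recruits pericytes, read 6.25, 5.77 and 6.20 in caudal KO, against 5.68, 5.90 and 6.08 in caudal WT. In rostral cortex it read 6.30, 6.26 and 7.38 in KO, against 6.28, 5.94 and 6.18 in WT. Rostral KO 15 lay 2.11-fold above the next highest array, and KO and WT overlapped in both regions. The rostral difference was 0.52 ± 0.28 (SE, limma adjusted p = 0.77), or 0.15 without rostral KO 15. Abcc9, a subunit of the potassium channel of pericytes, read 6.80, 6.85 and 7.75 on the rostral KO arrays, against 6.92, 6.66 and 6.82 on the rostral WT arrays. It was also high on caudal KO 13 (7.37) and caudal WT 14 (7.38), against 6.73 to 6.93 on the other 4 caudal arrays. Kcnj8, the pore subunit of that channel, was highest on rostral KO 8 (6.63) and did not share this order.

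Rgs5, a regulator of G-protein signalling that marks pericytes, exceeded 5.21 on all arrays. Its values ran from 7.99 to 8.79 over all 12 arrays, highest on caudal WT 6, with overlap of KO and WT in both regions. The caudal KO minus WT difference was -0.05 on this probe set and 0.16 and 0.03 on others. A further Rgs5 probe set, of the kind that can also match other transcripts, gave -0.59 ± 0.21 (SE). It did not pass in a fit of all tested probe sets. Cspg4, which encodes the NG2 proteoglycan, is made by pericytes and by oligodendrocyte precursors. It read 5.67, 5.37 and 5.53 on the rostral KO arrays, against 5.32, 5.24 and 5.02 on the rostral WT arrays, without overlap, and differed by 0.33 ± 0.35 (SE, limma adjusted p = 0.89). In caudal KO it was dim on all 3 arrays (5.19, 5.21 and 4.08), against 5.02, 5.23 and 4.67 in caudal WT. Anpep, which encodes the aminopeptidase CD13, ran from 0.60 to 3.97 and was not tested.

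Microglial genes were lower in caudal than in rostral cortex for all 7 tested members, in KO and in WT alike, though none passed the threshold. In KO the median caudal minus rostral difference was -0.39, with 7 of 7 negative, against -0.02 over all genes, of which 6225 of 11785 were negative. In WT the median was -0.33, with 7 of 7 negative, against -0.02 over all genes, of which 6546 were negative. The differences nearest 0 were -0.008 for Tyrobp in KO and -0.02 for Csf1r in WT. Without rostral KO 15 the KO count was 5 of 7, with a median of -0.44. In WT the size of the median rested on single arrays, since it was -0.13 without caudal WT 4 and -0.10 without rostral WT 10. The genes of the list can all come from the same cells, so their shared direction is not 7 separate observations.

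Fcer1g encodes the signalling chain that microglia share with other myeloid cells. It read 4.65, 4.26 and 4.17 in caudal KO, against 5.48, 5.25 and 5.34 in rostral KO. In WT it read 4.35, 5.90 and 5.41 in caudal cortex, against 5.71, 5.94 and 5.42 in rostral cortex. Caudal KO was dim on all 3 arrays and did not overlap with rostral KO, while caudal WT overlapped with both caudal KO and rostral WT. Fcer1g was therefore at least 1.10-fold lower in caudal than in rostral KO (limma adjusted p = 0.27), with measured means of 4.36 in caudal KO and 5.36 in rostral KO. Caudal WT, with a mean of 5.22, was itself dim on animal 4, so no lower limit is given against it. The measured caudal KO minus WT difference was -0.86 (limma adjusted p = 0.998). It ran from -0.52 without caudal WT 6 to -1.30 without caudal WT 4.

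C1qa, C1qb and C1qc encode the 3 chains of the complement component C1q, neighbours on chromosome 4 that microglia express together. C1qa read 3.44, 4.87 and 5.50 in caudal KO, against 5.45, 5.91 and 5.64 in rostral KO, and 4.82, 5.70 and 5.36 in caudal WT, against 5.57, 5.90 and 5.82 in rostral WT. C1qb read 5.84, 6.50 and 5.72 in caudal KO, against 6.48, 6.49 and 6.61 in rostral KO, and 6.31, 6.11 and 6.10 in caudal WT, against 6.50, 6.18 and 6.36 in rostral WT. C1qc was dim in caudal KO (4.97, 5.10 and 4.57), against 5.19, 5.45 and 5.04 in rostral KO, and read 4.80, 5.62 and 5.18 in caudal WT, against 6.10, 5.39 and 5.08 in rostral WT. The 3 chains did not order the arrays alike: caudal KO 1 was the lowest array for C1qa, and caudal KO 13 for C1qb and C1qc. All 3 overlapped between regions in KO and in WT.

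Tyrobp, the adaptor DAP12 of microglial receptors, read 6.11, 5.83 and 6.06 on the rostral KO arrays, against 6.32, 6.13 and 6.52 on the rostral WT arrays. The rostral groups did not overlap, with a difference of -0.33 ± 0.20 (SE, limma adjusted p = 0.79). In caudal cortex Tyrobp read 6.17, 6.02 and 5.79 in KO, against 5.94, 5.78 and 6.19 in WT, with overlap. Csf1r, the receptor for the growth factor on which microglia depend, ran from 7.53 to 8.33, highest on rostral KO 15. Its caudal KO minus WT difference was -0.11 on this probe set, and 0.15 and -0.49 ± 0.22 (SE) on others. None of these passed in a fit of all tested probe sets. Cx3cr1, the fractalkine receptor, read 5.27, 5.45 and 5.68 in caudal KO, against 5.99, 5.76 and 5.81 in rostral KO, without overlap. In WT it read 4.94, 6.29 and 5.88 in caudal cortex, against 6.14, 5.27 and 6.21 in rostral cortex, with overlap. Mrc1, a mannose receptor of border macrophages rather than microglia, was not tested and exceeded 5.21 only on rostral KO 15 (5.54). Aif1 (2.90 to 5.10) and Ptprc, which encodes the leukocyte antigen CD45 (-0.28 to 4.46), were dim on every array.

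**Figure D3:**
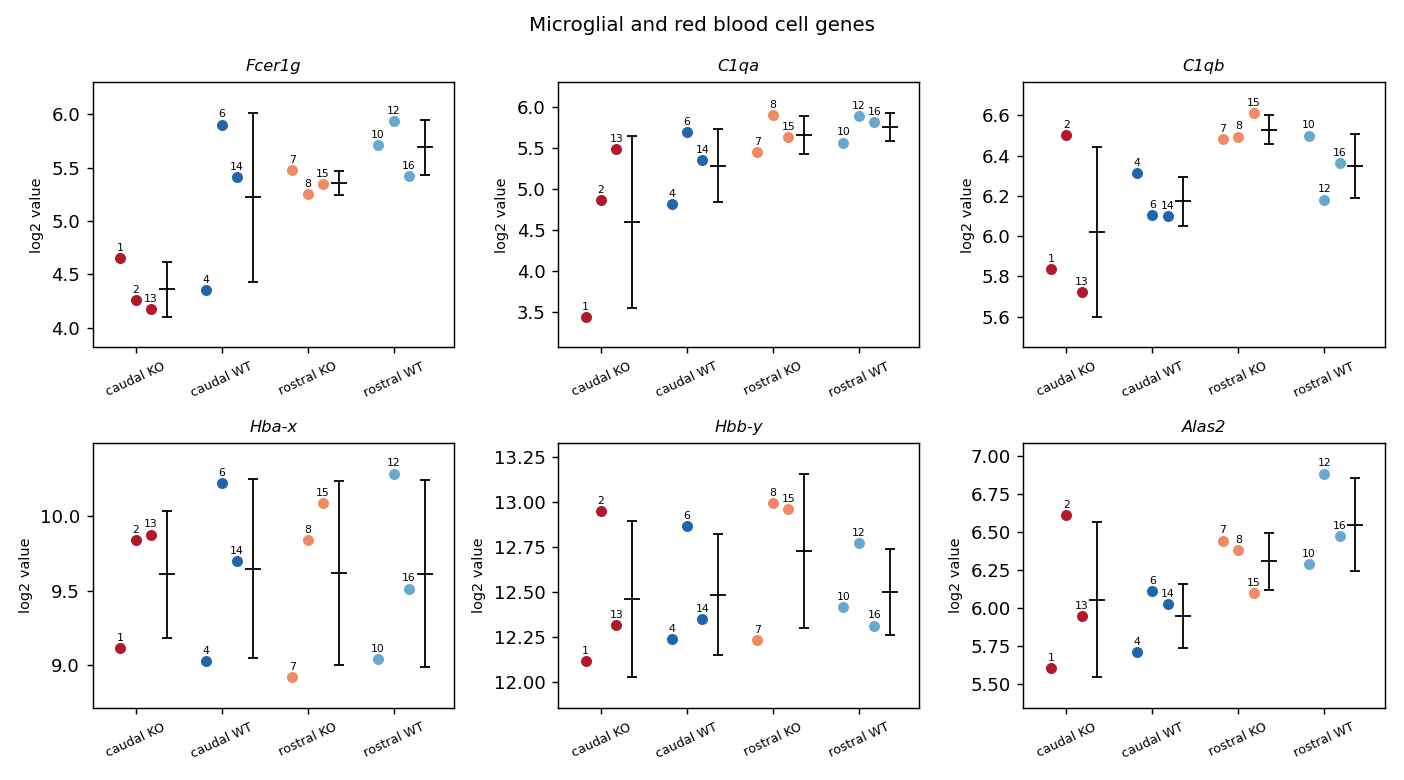
Log2 values of 3 microglial genes (top) and 3 red blood cell genes (bottom) on each array, in the 4 groups; numbers beside points are animal numbers, and the black mark and bar beside each group give the mean ± SD (n = 3). Fcer1g is at or below 4.65 on all caudal KO arrays, and animals 1, 4, 7 and 10 are the lowest of their groups for Hba-x and for all groups but rostral WT for Hbb-y.

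Hba-x encodes the embryonic zeta-globin and Hbb-y an embryonic beta-like globin, both made by primitive red cells. Hba-x read 9.12, 9.84 and 9.88 in caudal KO, against 9.03, 10.22 and 9.70 in caudal WT. The rostral arrays read 8.92, 9.84 and 10.09 in KO, against 9.04, 10.29 and 9.51 in WT. The 4 group means lay between 9.61 and 9.65, while the SD within groups was 0.43 to 0.63. Animals 1, 4, 7 and 10, 1 in each group, were the lowest of their groups, at 8.92 to 9.12.

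Hbb-y, likewise an embryonic chain, read 12.12, 12.95 and 12.31 in caudal KO, against 12.24, 12.87 and 12.35 in caudal WT. The rostral KO arrays had 12.23, 12.99 and 12.96, against 12.42, 12.77 and 12.31 in WT. KO and WT overlapped in both regions, and the highest array of each group was animal 2, 6, 8 or 12. Of its 3 probe sets 2 carry the suffix of probes that also match other transcripts, so some of this signal may come from related globins. The third probe set read 11.06 to 12.25, and its lowest array in each group was animal 1, 4, 7 or 10, as for Hba-x. Hbb-bh1, another embryonic beta-like globin, ran from 5.92 to 7.17 and was highest on caudal KO 2. Its KO minus WT differences were 0.30 ± 0.24 in caudal cortex and 0.09 in rostral cortex (limma adjusted p = 0.998 for the caudal one).

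Alas2, the enzyme that starts haem synthesis in red cell precursors, read 5.61, 6.61 and 5.95 in caudal KO, against 6.44, 6.38 and 6.10 in rostral KO. In WT it read 5.71, 6.11 and 6.02 in caudal cortex, against 6.29, 6.89 and 6.47 in rostral cortex. The WT regions did not overlap, and the difference was -0.60 ± 0.26 (SE, limma adjusted p = 0.43). In KO the regions overlapped through caudal KO 2. Slc4a1, which encodes the anion exchanger band 3 of the red cell membrane, ran from 4.60 to 5.79 with overlap in every comparison. The Slc4a1 probe set shown also carries the suffix of probes that can match other transcripts.

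The promoters of the 2 embryonic globins are shown because their genes had the same lowest animal in 3 of 4 groups. Both windows run from 250 bases before to 50 after the start site in RefSeq (GRCm38.p6), with capitals at the same 3 motifs on either strand. The Hbb-y window, chr7:103853158-103853457 on the minus strand, holds each motif at 1 place. The Hba-x window, chr11:32276350-32276649 on the plus strand, holds TGATAA at 1 place and CACCC at 2 places. Both of these motifs occur in 4.21% of the 32851 windows. The longest run of letters that both windows share is GGCTCCACCC, a stretch of 10 bases that begins at position -116 from the Hbb-y start site and -100 from that of Hba-x.
Hbb-y: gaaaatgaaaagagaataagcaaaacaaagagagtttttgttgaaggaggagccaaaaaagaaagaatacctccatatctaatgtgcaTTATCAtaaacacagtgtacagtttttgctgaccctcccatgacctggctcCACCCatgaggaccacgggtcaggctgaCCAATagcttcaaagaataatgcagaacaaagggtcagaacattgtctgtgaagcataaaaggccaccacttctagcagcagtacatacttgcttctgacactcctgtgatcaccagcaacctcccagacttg
Hba-x: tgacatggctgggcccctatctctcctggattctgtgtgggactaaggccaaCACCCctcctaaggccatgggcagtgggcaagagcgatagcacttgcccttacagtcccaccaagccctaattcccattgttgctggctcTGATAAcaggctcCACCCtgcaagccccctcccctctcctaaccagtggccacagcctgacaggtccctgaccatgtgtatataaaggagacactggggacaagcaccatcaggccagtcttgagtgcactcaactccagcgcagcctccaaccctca

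Summed over each list, the arrays differed in list-specific ways. The level of a list on an array was taken as the mean over its tested genes of the log2 value minus that gene's mean over 12 arrays. The meningeal level was 2.34 on rostral KO 15 and 0.45 on caudal WT 6, and -0.47 to -0.05 on the other 10 arrays. The basement membrane level was 1.07 on rostral KO 15, against -0.29 to 0.11 elsewhere. Endothelial and pericyte levels were also highest there, at 0.38 and 0.52. The microglial level was 0.18 on that array, inside the 0.11 to 0.38 of rostral WT, and the red blood cell level was 0.15 there, inside the -0.05 to 0.33 of rostral WT. The microglial level was -0.50 to -0.25 in caudal KO, against 0.09 to 0.18 in rostral KO, and -0.39 to 0.22 in caudal WT, against 0.11 to 0.38 in rostral WT. KO regions thus did not overlap and WT regions did. The pericyte level shared this pattern: -0.11 to -0.01 in caudal KO, against 0.04 to 0.52 in rostral KO, with overlap in WT. So did the cortical identity genes, at -0.29 to -0.03 in caudal KO, against 0.01 to 0.36 in rostral KO. Of all genes tested, 20.9% did not overlap between regions in KO, against 13.9% in WT. The red blood cell level spread widely in every group, from -0.35 to 0.36 in caudal KO alone.

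**Figure D4:**
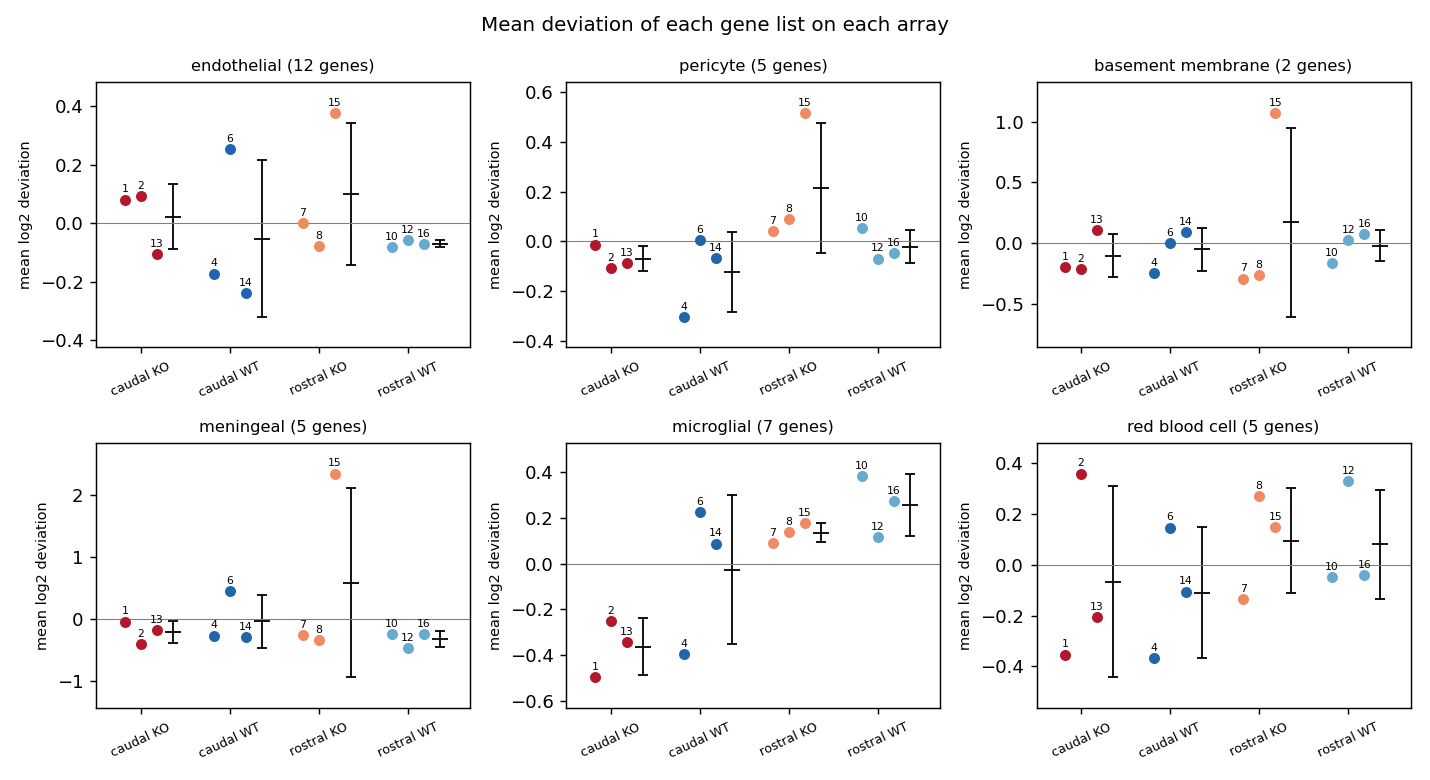
Mean log2 deviation of each of the 6 gene lists on each array, in the 4 groups, with a separate vertical scale for each panel; numbers beside points are animal numbers, and the black mark and bar beside each group give the mean ± SD (n = 3). Rostral KO 15 is the highest array in the endothelial, pericyte, basement membrane and meningeal panels but not in the microglial and red blood cell panels.

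The comparison averaged over both regions set all 6 KO arrays against all 6 WT arrays. No member passed: limma called 0 of 36, against 0.0339% of all genes tested, and 2 had an unadjusted p under 0.05 (5.56%, against 7.53%). No member was free of overlap in both regions in the same direction, against 1.18% of all genes. The median difference was 0.09, with 22 of 36 positive, against -0.01 over all genes. Without rostral KO 15 it was 0.01, with 18 of 36 positive. The member of smallest p was Slc7a5 in the endothelial list (0.24 ± 0.09, adjusted p = 0.60) and Fcer1g in the microglial list (-0.60 ± 0.26, adjusted p = 0.63, with caudal KO dim). In the other lists it was Pdgfrb (0.35 ± 0.20, adjusted p = 0.76), Igf2 (0.21 ± 0.16, adjusted p = 0.82) and Hbb-bh1 (0.19 ± 0.17, adjusted p = 0.85). Without rostral KO 15 Pdgfrb differed by 0.17 and Igf2 by 0.06, and without caudal KO 2 Hbb-bh1 differed by 0.07. These ranks hold for the brightest tested probe sets. The dimmer Egfl7 probe set described above differed by 0.55 ± 0.13 in a fit of all tested probe sets (limma adjusted p = 0.40). Its other probe sets gave 0.41, 0.18 for the brightest, and 0.05.

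In caudal cortex limma called 0 of 36 members in KO against WT, against 0% of all genes, and 2 (5.56%) had an unadjusted p under 0.05, against 4.06%. Of the members 1, Slc7a5, did not overlap between KO and WT (2.78%, against 7.52% of all genes). The list medians were 0.05 for endothelial, 0.06 for pericyte, -0.05 for basement membrane, -0.13 for meningeal, -0.24 for microglial and -0.02 for red blood cell genes, against -0.00 over all genes. Foxc1 was dim in caudal KO and also on some caudal WT arrays, so no lower limit is given. Its limma adjusted p was 0.998, as was that of Kcnj8, which differed by 0.22 ± 0.20. The measured Foxc1 difference was -0.30, or -0.06 without caudal WT 6. With 3 arrays a group, limma called no KO difference of these genes in caudal cortex, which does not show that there was none.

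In rostral cortex limma called 0 of 36 members in KO against WT, against 0% of all genes, and 0 had an unadjusted p under 0.05, against 6.69%. The median difference was 0.17, with 26 of 36 positive, against -0.02 over all genes. Without rostral KO 15 it was 0.02, with 20 of 36 positive. Egfl7, Cdh5 and Cspg4 were higher and Tyrobp lower without overlap, 4 of 36 (11.1%), against 13% of all genes, so the share was close to the background. The meningeal median was 0.93 over all arrays and -0.09 without rostral KO 15, and the basement membrane median was 0.19 and -0.26. The endothelial median was 0.29 and 0.12, and the pericyte median 0.33 and 0.05. Col3a1 differed by 1.52 over all arrays and by -0.09 without that animal, Col1a2 by 0.93 and -0.23. Dcn, of smallest p in the list, differed by 1.42 ± 0.77 (limma adjusted p = 0.77), or 0.53 without it. Microglial and red blood cell medians were -0.10 and 0.00 over all arrays, and -0.16 and 0.04 without rostral KO 15. Animals 13 to 16, 1 in each group, can be set apart by number: in rostral KO against WT the median over all members was 0.48 in animals 15 and 16 and -0.00 in the others.

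**Figure D5:**
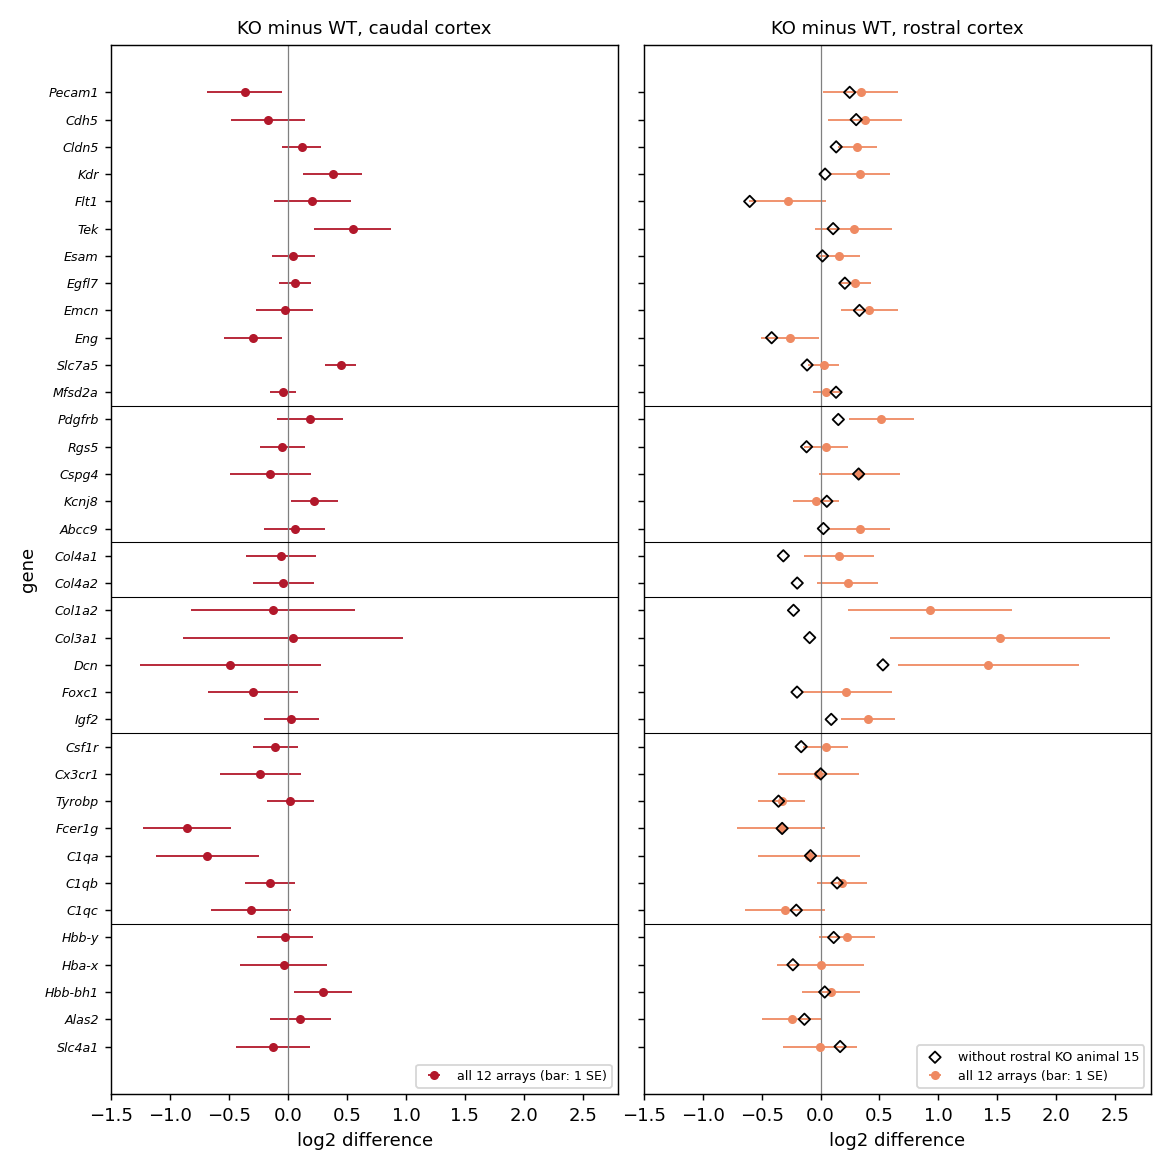
KO minus WT log2 difference of each tested gene in caudal (left) and rostral cortex (right), with bars of 1 SE from limma and black lines between the 6 lists; open diamonds give the rostral difference without animal 15. The diamonds of Col1a2 and Col3a1 lie below 0 (-0.23 and -0.09), against 0.93 and 1.52 with all arrays, whereas those of the microglial genes Tyrobp and Fcer1g (-0.36 and -0.33) lie close to the values with all arrays (-0.33 for both).

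Setting the caudal KO effect minus the rostral one asks whether the regions responded unequally. Limma called 0 of 36 members, against 0% of all genes, and 1 had an unadjusted p under 0.05 (2.78%, against 3.04%). It was Slc7a5, with 0.42 ± 0.18 (limma adjusted p = 0.999). No member was free of overlap in both regions in opposite directions, against 0.246% of all genes. The median was -0.21 with 28 of 36 negative, against 0.02 over all genes, and 0.03 with 17 of 36 negative without rostral KO 15. Dcn differed by -1.91 ± 1.08, Cspg4 by -0.48 ± 0.49, Tyrobp by 0.35 ± 0.28 and Alas2 by 0.35 ± 0.36, each with a limma adjusted p of 0.999. Without rostral KO 15 Dcn differed by -1.02. Cspg4 was dim in caudal KO and differed by -0.11 without caudal KO 13, and Alas2 by 0.07 without caudal KO 2.

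Caudal against rostral cortex was then compared within each genotype. In KO, limma called 0 of 36 members, against 0.95% of all genes, and 3 had an unadjusted p under 0.05, Fcer1g, C1qa and C1qb (8.33%, against 13.2%). Fcer1g, Cx3cr1, Pdgfrb and Cspg4 were lower in caudal KO without overlap, 11.1% of members, against 12.1% of all genes. The median was -0.26 with 31 of 36 negative, against -0.02 over all genes, and -0.01 with 18 of 36 negative without rostral KO 15. Pdgfrb differed by -0.57 ± 0.28 (limma adjusted p = 0.41), Cdh5 by -0.48 ± 0.31 (0.56) and Slc4a1 by -0.36 ± 0.31 (0.69). Pdgfrb differed by -0.21 without rostral KO 15, and without caudal KO 13 Cdh5 differed by -0.22 and Slc4a1 by -0.12. Cspg4, dim in caudal KO, was at least 1.24-fold lower there (limma adjusted p = 0.42), or 1.23-fold without rostral KO 15. Foxc1 was dim in caudal KO and on rostral KO 7, so no lower limit is given. Its measured difference was -0.66 (limma adjusted p = 0.50), or -0.25 without rostral KO 15. Leaving that array out was a setting chosen after the data were seen.

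In WT, limma called 0 of 36 members, against 0.942% of all genes, and 2 had an unadjusted p under 0.05 (5.56%, against 10.4%). These were Slc7a5 and Alas2, which were also lower in caudal WT without overlap (5.56%, against 8.99% of all genes). Slc7a5 differed by -0.30 ± 0.13 (limma adjusted p = 0.43). Tyrobp differed by -0.35 ± 0.20 (0.62), Kcnj8 by -0.24 ± 0.20 (0.81) and Dcn by 0.92 ± 0.77 (0.81). Many Dcn values were dim, and its difference was 0.50 without caudal WT 6 and ran from 0.28 to 1.49 over the alternatives. The median over members was -0.07 with 22 of 36 negative, against -0.02 over all genes. The KO and WT comparisons of regions share no arrays, and both have negative medians for the microglial list, as given above. The same held for the pericyte list (-0.12 in KO and -0.22 in WT) and the basement membrane list (-0.27 and -0.03). It also held for the red blood cell list (-0.25 and -0.14) and the cortical identity genes (-0.30 and -0.07). Endothelial and meningeal medians were negative in KO (-0.06 and -0.87) and positive in WT (0.05 and 0.11).

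Related genes of the same cell types gave no call either. These 6 lists were read beside the members: 16 other endothelial, 8 other pericyte, 14 other meningeal, 15 other microglial and 13 other red blood cell genes, and 16 ligands that act on these cells. Of these, 13, 5, 6, 9, 3 and 12 were tested, and limma called 0 in KO against WT averaged over regions and 0 in caudal against rostral WT. At an unadjusted p under 0.05 there were 2 other meningeal, 1 other microglial and 1 ligand gene in the first comparison, and 2 other microglial and 3 ligand genes in the second. These were 4 of 48 (8.33%), against 7.53% of all genes, and 5 of 48 (10.4%), against 10.4%, so both shares were close to the background. Col6a2, a chain of type VI collagen and the other meningeal gene of smallest p, read 5.98, 5.97 and 5.90 in caudal KO, against 5.60, 5.49 and 5.69 in caudal WT. The rostral KO arrays had 6.03, 6.00 and 6.67, against 5.49, 5.50 and 5.60 in WT. All KO arrays lay above all WT arrays in both regions, and the averaged difference was 0.53 ± 0.16 (SE, limma adjusted p = 0.42). Unlike Col1a2 and Col3a1, Col6a2 was above WT on rostral KO 7 and 8 as well as on rostral KO 15. The Col6a2 probe set read here carries the suffix of probes that can also match other transcripts.

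Other genes of smallest p in the averaged KO comparison were the mucin-like gene Cd34 (0.20, adjusted p = 0.78), the vitronectin gene Vtn (0.45, 0.69), the myeloid gene Ly86 (-0.76, 0.52), the red cell factor Klf1 (-0.53, 0.78, dim on all rostral KO arrays) and the growth factor Csf1 (0.40, 0.66), all by limma. Cd34 differed by 0.09 and Vtn by 0.23 without rostral KO 15. Between WT regions Csf1, a ligand of the microglial receptor Csf1r, read 5.23, 4.90 and 5.48 in caudal WT, against 5.75, 6.18 and 6.43 in rostral WT. The regions did not overlap, and the difference was -0.92 ± 0.26 (SE, limma adjusted p = 0.13). Over the alternatives it ran from -1.10 to -0.46, with a limma adjusted p of up to 0.58, and caudal WT 6 was dim. In KO Csf1 read 5.95, 5.92 and 5.47 in caudal cortex, against 6.34, 6.06 and 6.62 in rostral cortex, again lower caudally without overlap. Of all genes, 8.99% were lower without overlap in caudal WT and 12.1% in caudal KO. P2ry12, a purine receptor gene of microglia, differed by -0.65 between WT regions (adjusted p = 0.42), Sox17 of arterial endothelium by -0.36 (0.64), Ndufa4l2 by -0.78 (0.61), the fibronectin gene Fn1 by 0.44 (0.52) and Klf1 by 0.71 (0.73). Without caudal WT 6 the Ndufa4l2 difference was -0.22.

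Rostral KO 15 was the highest array for 15 of the 48 related genes (31.3%), against 9.09% of all tested genes. These were 3 of 6 other meningeal, 4 of 13 other endothelial, 2 of 5 other pericyte, 3 of 9 other microglial, 1 of 3 other red blood cell and 2 of 12 ligand genes. Bgn, which encodes the proteoglycan biglycan, read 8.41 on rostral KO 15, against 7.05 to 7.83 on the other arrays. Col5a2 of type V collagen read 8.31 there, against 6.31 to 7.60 elsewhere. Pf4, a platelet and macrophage chemokine gene, read 7.09 there, against 3.90 to 5.96 elsewhere, and the apelin receptor gene Aplnr read 9.81, against 8.25 to 9.06. The part of meningeal tissue, of vessels or of any other source in the values of this array was not tested, since the labels do not describe how each piece was taken.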

How the data were processed

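Per the labels, 400 ng of total RNA from each piece of cortex were amplified and labelled with biotin for 1-colour oligonucleotide arrays. The deposited table gives the 12 arrays in log2 units for 45101 probe sets, from -3.81 to 14.02. The unit and the equal quartiles were read from the values, which the authors had normalised between arrays, and the methods for background, normalisation and summarisation are not given in the sources used here. The platform annotation names 1 gene for 34958 probe sets, several for 932 and none for 9211. The filter and the choice of probe set are given above. limma 3.58.1 in R 4.3.3 fitted 1 mean for each of 4 groups on all 12 arrays and moderated the variances along intensity, with 5.37 prior and 8 residual degrees of freedom. Tests were two-sided, with Benjamini-Hochberg adjustment over 11785 genes and a threshold of 0.05, and the fit was tested on simulated data. Where a group was dim on all its arrays, dim values of both groups were raised to 5.21 for the fold. This fold is a lower limit for the group means only where the other group exceeded 5.21 on all its arrays. The fold itself was not tested. Promoter windows are from RefSeq, with windows for 34 of 47 members.

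In each comparison a difference with its adjusted p was due for any member past the threshold and otherwise for the member of smallest p in each list of 3 or more tested genes. Others given with such values were chosen after their values were seen. These were Cdh5, Cspg4, Emcn, Flt1, Col1a2 and Col3a1, and further probe sets of Egfl7, Col4a1, Rgs5, Flt1 and Csf1r. Members and lists were chosen with earlier results of these data known. Alternatives were quantile normalisation, median centring, values raised to the median, no filter, a filter at the 75th percentile (7.55), other summaries of probe sets, animals 13 to 16 as a block, other moderation, fits of only the groups compared, fits of animals 1 to 12 or without WT animals 6 and 12, weights for arrays, and each array left out.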

Additional observations from a re-analysis of the deposited data

How the results depend on the processing

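The count of members past the threshold was 0 in each of the 6 comparisons with limma and remained 0 under every alternative run, each array left out in turn included (range 0 to 0). The smallest limma adjusted p of any member over the alternatives was 0.32 for KO against WT averaged over regions, 0.53 in caudal and 0.47 in rostral cortex, 0.81 for the difference of the KO effects, 0.071 for caudal against rostral KO and 0.26 for caudal against rostral WT. None of the 42 differences named for the smallest p turned its sign, but 25 moved by over 1.5 times when 1 array was left out, and for 9 of these the smallest value was the one without rostral KO 15. Of the rostral differences named after their values were seen, 3 turned sign with 1 array left out: Col3a1 ran from -0.093 to 2.34 and Col1a2 from -0.23 to 1.59, both negative without rostral KO 15, and Flt1 from -0.60 to 0.012, positive without rostral KO 8. With values below 5.21 raised to it, the mean microglial level was -0.19 in caudal KO, against -0.36 as deposited, and 0.049 in rostral KO, against 0.13, because dim values lose their spread. The restriction to the groups compared applies to no comparison that uses all 4 groups. No paired analysis was possible because the groups compared share no animal numbers. Each group had 3 arrays, and no detection calls were used here. Fcer1g, C1qc, Foxc1 and Cspg4, dim in caudal KO, have at most lower limits against that group. Such a limit is given only against a group above 5.21 on all its arrays. Their averaged differences and differences of KO effects therefore rest on dim values. Leaving out animal 15 turned the rostral median of KO against WT from 0.93 to -0.09 for meningeal genes. For basement membrane genes it turned from 0.19 to -0.26.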
